A study of Carica papaya with 15 samples.

Results

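Transcripts of 3 galactosidase genes of the cell wall were followed in papaya pulp, among 20332 genes of the expression table. They are a beta-galactosidase gene that the study lists as gene7019 (LOC110811182), the beta-galactosidase gene BGAL5 (LOC110810818) and an alpha-galactosidase gene listed as gene1360 (LOC110817097). The 3 genes were chosen by their known results in these same libraries, as cell wall genes with large changes between the groups. Their levels and fold changes are therefore given as a description, with no test. Pulp of "Golden" papaya was sampled in 5 groups. T24h fruit were kept in ethylene at 100 ppm for 12 h and sampled 12 h after they left the gas. T12h fruit were sampled at the end of the 12 h of gas, after venting with air for 1 h. C0h, C12h and C24h fruit got no ethylene and were sampled at 0, 12 and 24 h. Each group had 3 libraries, 1 from each of the harvests A, B and C, and every library pooled 5 fruit or more, peeled and without seeds. The replicate is thus a pool from 1 harvest and not a single fruit.

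Beta-galactosidases of plants cut galactose from the ends of sugar chains. In the wall of fruit cells their substrates include the galactan side chains of pectin and the sugars of arabinogalactan proteins, and the loss of galactose from the wall is a known feature of softening in many fleshy fruits. Alpha-galactosidases cut galactose that is joined by the other type of bond, as in the raffinose family of oligosaccharides and in galactomannans. Both types of enzyme release free galactose, which galactokinase phosphorylates so that it can be returned to nucleotide sugars.

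The values are normalized counts, which are reads per gene over the size factor of the library. Reads recovered from them came to between 7999275 and 12542678 in 13 libraries, and for T24h B and T12h B the summed normalized counts were 11269995 and 11327020. Fold changes are differences of mean log2 values after adding 1, with their standard error (SE), from a limma fit over 15270 genes with a mean of at least 5. The library C24h B stood apart from C24h A and C24h C. Its polygalacturonase transcript LOC110809302, a gene of pectin breakdown, was at 75.4 normalized counts, against 5.24 in C24h A and 2.6 in C24h C. A second polygalacturonase transcript, LOC110813488, was scarce, at 4.53 in C24h B, 1.05 in C24h A and 0 in C24h C. In C12h B, LOC110809302 was at 26.5 and LOC110813488 at 5.48, so this library was also above its group for both. Of the marker lists for other tissues, seed genes summed to 5.55 normalized counts at most, with ABI3, a seed regulator, at 0 in all libraries, and guard cell and epidermis genes to 1.51 at most, from the 3 of 15 and 2 of 6 listed genes in the table. The 6 of 13 green peel genes in the table summed to 88.8 to 99.2 in T24h, 51.7 to 70.2 in T12h, 72.5 to 111 in C0h, 90.4 to 98.4 in C12h and 87.1 to 99.6 in C24h. Of the 10 listed genes of the secondary wall of vessels, 4 were in the table. Without the cellulose synthase IRX3 they summed to 4.02 to 10.4 in T24h and 1.99 to 16.7 in T12h. In the controls they summed to 1.43 to 3.05 in C0h, 0.913 to 3.58 in C12h and 1.05 to 4.34 in C24h. IRX3 itself was at 748 to 5451 normalized counts in T24h and 5846 to 8696 in T12h, at 19.96 to 489 in C0h and 20.3 to 656 in C12h, and at 4228 in C24h B, against 151 and 52.9 in C24h A and C24h C. The part of these tissues in the results below was not tested. In bulk pulp, a larger number of cells with a transcript and more transcript per cell cannot be told apart.

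The beta-galactosidase gene7019 (LOC110811182) had its highest group mean in T12h. In T24h A, B and C it had 48577, 13570 and 23370 normalized counts, and in T12h it had 45646, 51397 and 55620. In C0h the values were 21654, 9800 and 5554. They were 7635, 12531 and 4127 in C12h, and 12651, 25452 and 6140 in C24h. All 3 T12h libraries were above all 9 control libraries, and the T12h libraries were close to each other while every other group was widely spread. T24h A lay among the T12h libraries, whereas T24h B lay below C0h A and C24h B. The library C24h B had more gene7019 transcript than any other control library, and it was also the control library with the most IRX3.

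By group, gene7019 (LOC110811182) averaged 28505 ± 18060 normalized counts in T24h, 50888 ± 5006 in T12h, 12336 ± 8344 in C0h, 8098 ± 4221 in C12h and 14748 ± 9825 in C24h (SD, n = 3 libraries each). From high to low the order was T12h, T24h, C24h, C0h, C12h, and the ranges of each pair of neighbours in this order overlapped. The SD of T12h was 9.84% of its mean. The lowest count of reads behind any of these values was 5084 in C12h C (exact Poisson 95% interval 4945 to 5226), so counting error was small beside the spread between harvests. Such intervals cover counting error only.

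BGAL5 (LOC110810818), also annotated as a beta-galactosidase, had the opposite course. Its normalized counts were 283, 446 and 249 in T24h A, B and C, and 115, 33.8 and 145 in T12h. The controls had 620, 297 and 654 in C0h, 446, 252 and 447 in C12h, and 537, 257 and 363 in C24h. All 3 T12h libraries were below the 12 others, with T12h B the lowest of all. The T24h libraries were back within the range of the control libraries or, in T24h C, just under its lower end. Harvest B gave the lowest value of each control group and of T12h, but the highest of T24h.

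The group means of BGAL5 (LOC110810818) were 326 ± 105 normalized counts in T24h, 98.0 ± 57.7 in T12h, 524 ± 197 in C0h, 382 ± 112 in C12h and 385 ± 142 in C24h (SD, n = 3 libraries each). From high to low the order was C0h, C24h, C12h, T24h, T12h. Neighbours overlapped in their ranges except T24h and T12h, which did not. The values rest on 103 reads in T12h A (exact Poisson 95% interval 84.1 to 125) and on 499 in C12h A (456 to 545), so the gap between these libraries of harvest A was wider than counting error. T12h B belongs to the libraries whose reads were not used, and its depth is given here only as the summed normalized count.

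The alpha-galactosidase gene1360 (LOC110817097) had its lowest group mean in T24h, not in T12h. T24h A, B and C had 120, 142 and 405 normalized counts, and T12h had 397, 784 and 352. There were 650, 826 and 1027 in C0h, 334, 499 and 645 in C12h, and 500, 442 and 613 in C24h. T24h A and T24h B were below the 13 other libraries. T24h C was above C12h A and above T12h A and T12h C, so T24h overlapped with T12h and with C12h but not with C0h or C24h. In T12h the values lay within the range of the controls, and T12h B lay within the range of C0h.

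For gene1360 (LOC110817097) the group means were 222 ± 159 normalized counts in T24h, 511 ± 238 in T12h, 835 ± 189 in C0h, 493 ± 155 in C12h and 519 ± 87.1 in C24h (SD, n = 3 libraries each). From high to low the order was C0h, C24h, T12h, C12h, T24h. C0h lay above C24h in every library, and each other pair of neighbours overlapped. Behind the lowest value stood 99 reads in T24h A (exact Poisson 95% interval 80.5 to 121), and behind the highest 1441 in C0h C (1368 to 1517).

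**Figure D1:**
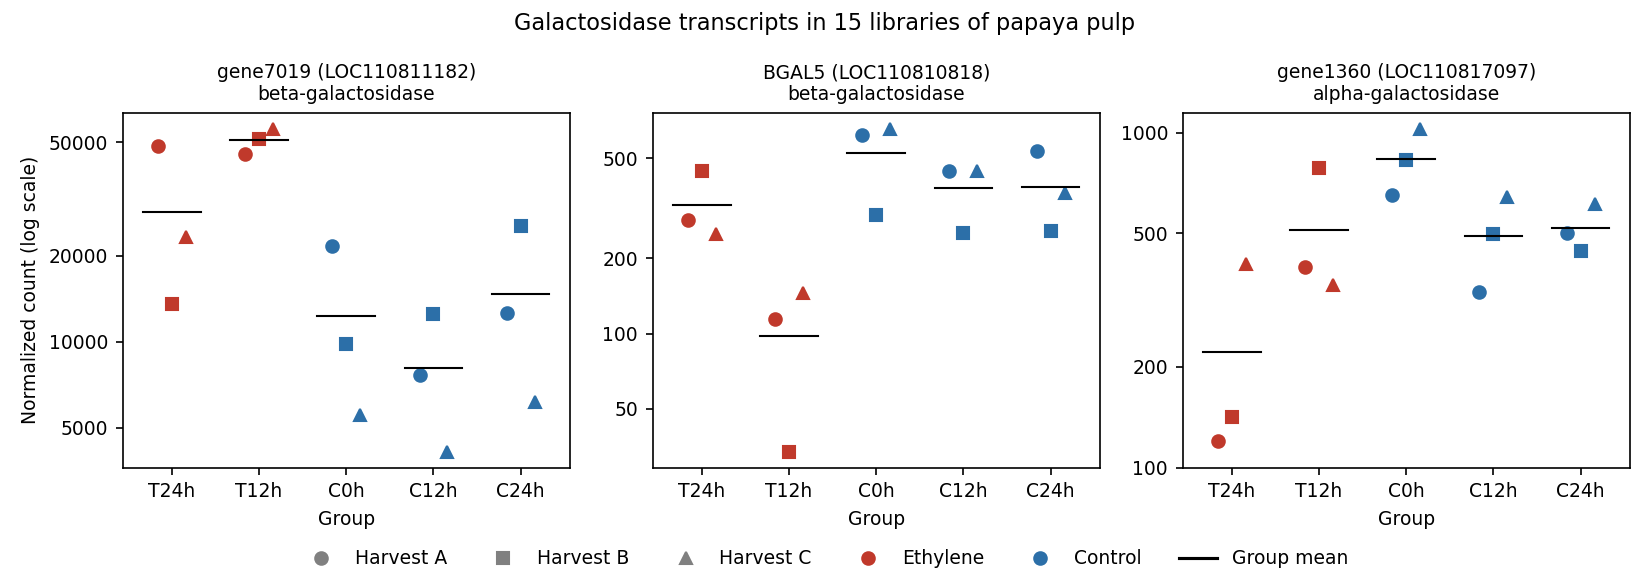
Normalized counts of the 3 galactosidase genes, on a log scale, in the 15 libraries of T24h, T12h, C0h, C12h and C24h, with 1 point per library, its shape for the harvest and a line for the group mean. gene7019 has its T12h points between 45646 and 55620, BGAL5 has its T12h points at 145 or lower, under all others, and gene1360 has T24h A and B at 120 and 142, under all others.

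The first comparison asks how fruit at the end of the gas differed from untreated fruit of the same age. Between T12h and C12h, gene7019 (LOC110811182) was 6.91-fold higher in T12h, a log2 fold change of 2.79 (SE 0.60). BGAL5 (LOC110810818) was 4.41-fold lower in T12h (log2 fold change -2.14, SE 0.49). The alpha-galactosidase gene1360 (LOC110817097) was almost level, with a log2 fold change of 0.01 (SE 0.42). Without T12h B the log2 fold change of BGAL5 was -1.51. Of the 3 genes, 2 had an adjusted p of at most 0.05 in limma, as did 24.1% of all 15270 genes tested. Nothing can be read from that count, because the genes were chosen on this comparison.

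Within a harvest, gene7019 (LOC110811182) was 5.98, 4.1 and 13.5 times as high in T12h as in C12h in harvests A, B and C. For BGAL5 (LOC110810818) the ratios of T12h to C12h were 0.257, 0.134 and 0.325, so that the direction of each beta-galactosidase gene was the same in all 3 harvests. For gene1360 (LOC110817097) they were 1.19, 1.57 and 0.546, with harvest C on the other side of 1. The summed green peel genes were also lower in T12h than in every other group, and their part in the difference was not tested.

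A further 12 h without gas set T24h against C24h. Here gene7019 (LOC110811182) had a log2 fold change of 0.99 (SE 0.60), BGAL5 (LOC110810818) of -0.22 (SE 0.49) and gene1360 (LOC110817097) of -1.43 (SE 0.42). None of the 3 had an adjusted p of at most 0.05 in limma, as none of the 15270 genes had (0%), although 2843 genes had an unadjusted p under 0.05. On the 13 libraries with recovered reads edgeR called 0 genes and DESeq2 called 76. The harvests did not move together for gene7019, which was at 3.84 times the C24h level in T24h of harvest A and 3.81 times in harvest C, but at 0.533 times in harvest B. For BGAL5 the ratios were 0.527, 1.74 and 0.687 in harvests A, B and C. For gene1360 they were 0.239, 0.321 and 0.660, below 1 in each harvest.

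The comparison of T24h with C24h depends on C24h B. Without this library the log2 fold change was 1.5 for gene7019 (LOC110811182), -0.48 for BGAL5 (LOC110810818) and -1.54 for gene1360 (LOC110817097), and limma called 3602 of 15279 genes. Without T24h A that of gene7019 was 0.50 and without C24h C 0.47, and without C24h A that of BGAL5 was 0.05, on the other side of 0.

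**Figure D2:**
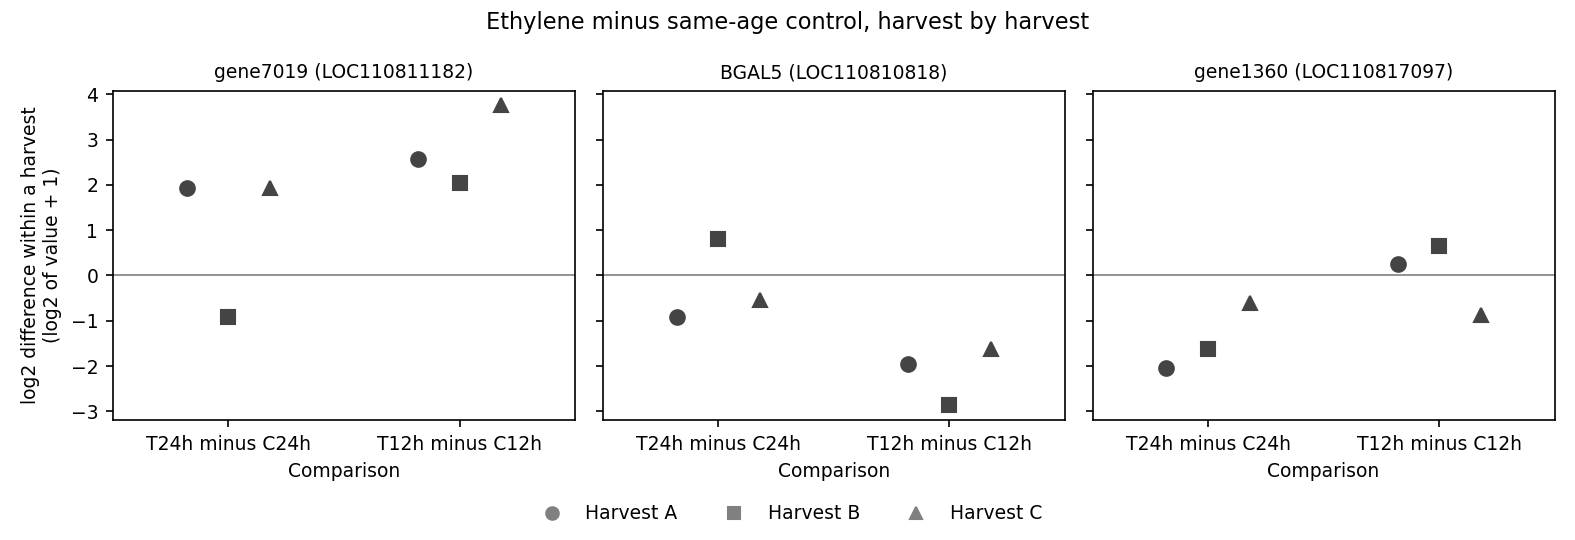
Log2 differences (of normalized counts after adding 1) between an ethylene library and the control library of the same age and harvest, for T24h minus C24h and T12h minus C12h, with 1 point per harvest. At T12h minus C12h the points lie above 0 for gene7019 and below 0 for BGAL5 in all harvests, and at T24h minus C24h harvest B lies on the other side of 0 from harvests A and C for both.

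The effect of ethylene at 24 h minus that at 12 h was a log2 difference of -1.80 (SE 0.85) for gene7019 (LOC110811182), 1.92 (SE 0.69) for BGAL5 (LOC110810818) and -1.44 (SE 0.59) for gene1360 (LOC110817097). The gap between treated and control fruit was thus nearer to 0 at 24 h for both beta-galactosidase genes and further from 0 for the alpha-galactosidase gene, and this was not tested for the 3 genes. Over all genes tested, limma called 0 (0%) for this interaction, with 1938 at an unadjusted p under 0.05. On 13 libraries edgeR called 0 and DESeq2 called 7, and limma called 9 without C24h B and 3 without T12h A.

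Set against fruit at the start, the T12h level of gene7019 (LOC110811182) was higher than that of C0h by a log2 fold change of 2.26 (SE 0.60). That of BGAL5 (LOC110810818) was lower, with a log2 fold change of -2.56 (SE 0.49), and that of gene1360 (LOC110817097) was lower with -0.78 (SE 0.42). Limma called 24.0% of all genes here, and 2 of the 3, from which again nothing can be read. Within harvests A, B and C the ratio of T12h to C0h was 2.11, 5.24 and 10.01 for gene7019. It was 0.185, 0.114 and 0.222 for BGAL5, and 0.610, 0.950 and 0.343 for gene1360. Without T12h B the log2 fold change of BGAL5 was -1.93, and with edgeR on 13 libraries that of gene1360 was -1.18. The comparison with C12h and the one with C0h share the T12h libraries, so they are not independent of each other.

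Between T24h and C0h, the log2 fold change was 1.24 (SE 0.60) for gene7019 (LOC110811182), -0.65 (SE 0.49) for BGAL5 (LOC110810818) and -2.1 (SE 0.42) for gene1360 (LOC110817097). Limma called 15.6% of all genes and 1 of the 3, and nothing can be read from that count. The alpha-galactosidase gene1360 was at 0.184, 0.172 and 0.394 times its C0h level in T24h of harvests A, B and C. For gene7019 the 3 ratios were 2.24, 1.38 and 4.21, all above 1, and for BGAL5 they were 0.457, 1.5 and 0.381. Without T24h A the log2 fold change of gene7019 was 0.75 and without C0h C 0.77, and without C0h B that of BGAL5 was -1.01.

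The treated fruit were also compared with each other, after the gas and at its end. T24h minus T12h gave a log2 fold change of -1.03 (SE 0.60) for gene7019 (LOC110811182), 1.92 (SE 0.49) for BGAL5 (LOC110810818) and -1.33 (SE 0.42) for gene1360 (LOC110817097). Limma called 5.51% of all genes and 1 of the 3, with nothing to be read from that count either. The ratio of T24h to T12h for BGAL5 was 2.47, 13.2 and 1.71 in harvests A, B and C, and so above 1 in all of them. For gene7019 the ratio was 1.06, 0.264 and 0.420, and for gene1360 it was 0.302, 0.181 and 1.15. The log2 fold changes were nearer to 0 without harvest B. Without T24h B and T12h B the log2 fold change in limma was -0.58 for gene7019, 1.03 for BGAL5 and -0.76 for gene1360. Leaving out T12h B alone gave 1.28 for BGAL5 and -0.97 for gene1360, and leaving out T24h B alone gave -0.59 for gene7019.

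**Figure D3:**
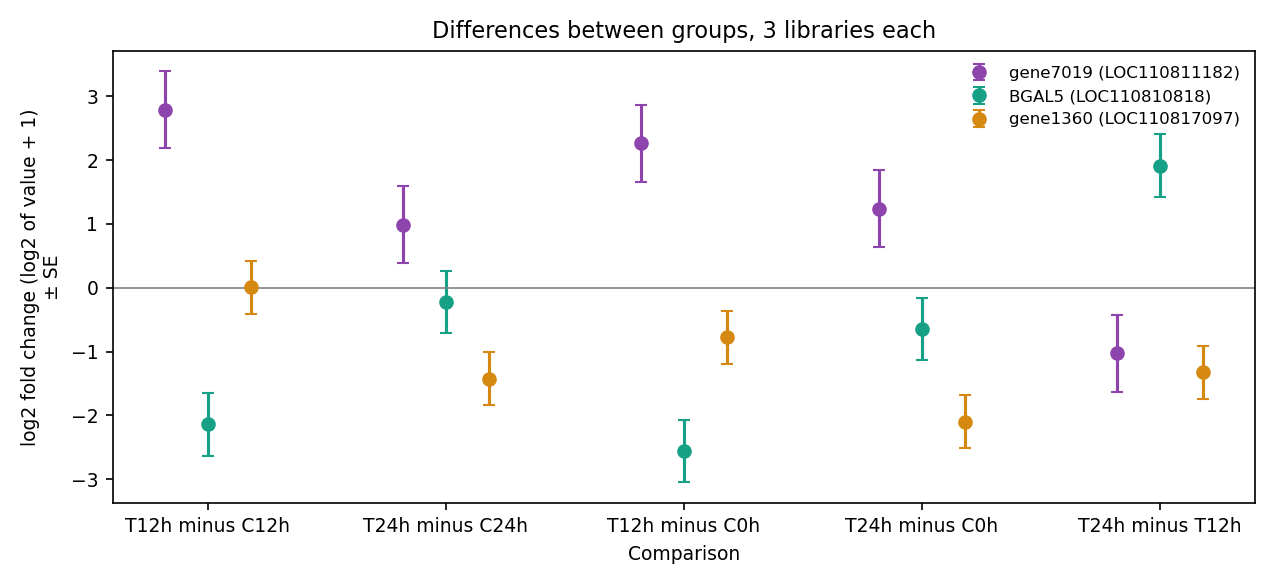
Log2 fold changes of the 3 galactosidase genes in 5 comparisons (after adding 1 to the normalized counts), with bars of 1 SE from the limma fit and 3 libraries per group. gene7019 and BGAL5 are far from 0 on opposite sides in T12h minus C12h (2.79 and -2.14), and gene1360 is near 0 there (0.01) and at -1.43 in T24h minus C24h.

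Storage without ethylene gave smaller differences for both beta-galactosidase genes than T12h minus C12h did. In C12h minus C0h the log2 fold change was -0.53 (SE 0.60) for gene7019 (LOC110811182), -0.42 (SE 0.49) for BGAL5 (LOC110810818) and -0.79 (SE 0.42) for gene1360 (LOC110817097). In C24h minus C0h they were 0.25, -0.42 and -0.67 with the same SE, and in C24h minus C12h they were 0.77, -0.0032 and 0.11. Limma called no member and no other gene in these 3 comparisons (0% of 15270 genes, with 1070, 958 and 549 at an unadjusted p under 0.05). On the 13 libraries with recovered reads edgeR called 0 genes in each, and DESeq2 called 34, 1 and 4 of 15168. The alpha-galactosidase gene was lower in C12h than in C0h in each harvest, at 0.514, 0.604 and 0.627 times the C0h level, and lower in C24h than in C0h in each harvest, at 0.769, 0.535 and 0.597 times. BGAL5 was at 0.720, 0.848 and 0.683 times its C0h level in C12h.

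Other beta-galactosidase genes could be found by their symbol, 7 in all, and these can be tested. Gene7019 and BGAL5, chosen for large changes, are not among them. Genes of the family that carry no symbol, such as gene7019 (LOC110811182) itself, could not be found in this way. Counts and medians of the genes found therefore do not stand for the whole family. The gene called BGAL17 (LOC110810960) had a mean below 5 and was not tested. It was listed at 0 in all 6 treated libraries and at 3.65 normalized counts or less in the controls. Of the 6 tested, 1 rose between T12h and C12h and none fell, and the median log2 fold change was -0.29, against -0.01 over all genes. Between T12h and C0h 1 rose and 1 fell (median -0.48, all genes -0.02), and between T24h and C0h 1 rose and 1 fell (median 0.30, all genes -0.02). None passed the test between T24h and C24h in limma, edgeR or DESeq2 (2 at an unadjusted p under 0.05 in limma, median -0.05), nor between T24h and T12h (3 at an unadjusted p under 0.05, median 0.46). The shares called are to be read beside the 24.1%, 24.0% and 15.6% of all genes, which themselves depend on single libraries. Of about as many genes tested, limma called 3675 in T12h against C12h but 1937 without T12h B, 1154 without T12h C, 843 without C12h A and 884 without C12h C. It called 3664 in T12h against C0h but 810 without C0h C, 1480 without C0h B, 1726 without T12h C, 2007 without T12h B and 2416 without T12h A. In the same comparisons, of T12h with C12h and with C0h, limma called 5188 and 5068 without C24h B, and 4429 and 4262 without C24h C. It called 2388 in T24h against C0h but 0 without C0h C, 188 without T24h A and 503 without C0h B, and 4092 without C24h B. The 842 of T24h against T12h became 36 without T24h B, 69 without T12h B, 119 without T12h C, 517 without T12h A, 525 without C12h C, 542 without C0h B and 1605 without C24h B. In the interaction and in the comparisons of controls limma called 0 of the 6, with 1 at an unadjusted p under 0.05 in C24h minus C0h and 0 in the others. The search by symbol found no alpha-galactosidase gene, and gene1360 (LOC110817097) itself carries no symbol, so others without a symbol would be missed too. The real-time PCR of the study names a further alpha-galactosidase gene, which is not followed here.

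BGAL10 (LOC110816435) was the 1 gene among these that rose. It had 3222, 1844 and 1950 normalized counts in T24h A, B and C and 1670, 1345 and 2356 in T12h, against 1073, 344 and 453 in C0h, 726, 682 and 527 in C12h, and 1011, 1954 and 417 in C24h. All T24h and T12h libraries were above all C0h and C12h libraries, and C24h B lay among the treated ones, as it did for gene7019 (LOC110811182). BGAL10 rose by a log2 fold change of 1.45 (limma SE 0.49, adjusted p = 0.0466) in T12h against C12h, and was higher in 3 of 3 harvests. On the same scale T12h rose by 1.66 against C0h (adjusted p = 0.0287) and T24h by 2.04 against C0h (adjusted p = 0.0202). T24h against C24h gave 1.27 (adjusted p = 0.214), and without C24h B 1.80 (adjusted p = 0.0149). The call of T12h against C12h was near the threshold. It was lost in 13 of 24 alternatives, with adjusted p from 0.0168 to 0.151 over all of them. These were each run without a T12h or a C12h library, those without T24h B, T24h C, C0h C or C24h A, the run with no filter on low values, and edgeR and limma on 13 libraries. Against C0h, the call of T12h was lost in 6 of 24 (adjusted p from 0.00949 to 0.114), among them those without T12h A, T12h C, C0h B or C0h C. That of T24h was lost in 4 of 24 (adjusted p from 0.00405 to 0.0872), among them those without T24h A, C0h B or C0h C.

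The other called genes of the family were lower in treated fruit than in C0h. Against controls of the same age, limma called neither of them on the 15 libraries. The log2 fold changes of T12h against C12h were -0.46 for BGAL8 (limma adjusted p = 0.208) and -0.47 for BGAL9 (adjusted p = 0.0815). Those of T24h against C24h were -0.62 (limma adjusted p = 0.238) and -0.18 (adjusted p = 0.62). In C24h against C0h they were -0.48 for BGAL8 and -0.28 for BGAL9. BGAL8 (LOC110806458) had 67.8, 121 and 105 normalized counts in T24h A, B and C and 153, 228 and 247 in C0h, and fell, with a log2 fold change of -1.10 (limma SE 0.26, adjusted p = 0.0196), with no overlap between the 2 groups. The call was lost without T24h A, C0h B or C0h C (adjusted p from 0.00217 to 0.0903 over 24 alternatives). In T12h against C0h the log2 fold change of BGAL8 was -0.73, near the threshold (limma adjusted p = 0.056). BGAL9 (LOC110811947) had 294, 265 and 310 in T12h A, B and C and 373, 492 and 515 in C0h, and fell, with a log2 fold change of -0.65 (limma SE 0.19, adjusted p = 0.0249). That call was lost in 8 of 24 alternatives (adjusted p from 0.0136 to 0.114), including each run without a T12h library and those without C0h B or C0h C. BGAL1 (LOC110818407), BGAL3 (LOC110822129) and BGAL16 (LOC110813600) were called in none of the comparisons on 15 libraries, but BGAL16 was called between T24h and C24h without C24h B (log2 fold change 0.99, adjusted p = 0.0357 from limma) and between T24h and C0h without C24h B or C24h C. BGAL3 was near the threshold between T12h and C12h (log2 fold change -1.30, adjusted p = 0.055 from limma) and was called there without T24h B, C0h B, C0h C or C24h B. The study also uses the name BGAL1 for gene7019 (LOC110811182), in its real-time PCR. The symbol BGAL1 of the reference table used here belongs to LOC110818407. The PCR of the study names a BGAL3 as well, which is not taken here to be LOC110822129. The BGAL3 of the reference table (LOC110822129) was scarce, at 3.33 to 3.98 normalized counts in T12h and 9.74 to 10.96 in C12h.

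A list of genes that make, recycle or transfer galactose and related nucleotide sugars held 40 symbols, of which 10 were in the table and all were tested. Between T12h and C12h 4 rose and none fell (median log2 fold change 0.85, all genes -0.01), beside 24.1% of all genes called. Between T12h and C0h 4 rose (median 0.91, all genes -0.02), beside 24.0%. Between T24h and C0h 4 rose and 1 fell (median 0.99, all genes -0.02), beside 15.6%. These counts depend on single libraries. The 4 of T12h against C12h became 1 without T12h C or C12h A and 2 without T12h B or C12h C. The 4 of T12h against C0h became 2 without T12h A, T12h B, C0h B or C0h C. The 5 of T24h against C0h became 0 without T24h A or C0h C, 1 without C0h B, 3 without T24h C and 8 without C24h B. Between T24h and C24h limma, edgeR and DESeq2 called none (5 at an unadjusted p under 0.05 in limma), but limma called 7 without C24h B. Between T24h and T12h and in the interaction limma called 0 (1 and 0 at an unadjusted p under 0.05).

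MUR4 (LOC110826064), named for the Arabidopsis epimerase that makes UDP-arabinose, rose in the T12h libraries to 1792, 2167 and 2450 normalized counts, against 388, 723 and 424 in C12h. The log2 fold change was 2.1 (limma SE 0.41, adjusted p = 0.00701), and the call was kept in all 24 alternatives (adjusted p from 0.000878 to 0.0395). Against C0h its log2 fold change was 2.27 in T12h (adjusted p = 0.00465) and 1.39 in T24h (adjusted p = 0.0373), the second call being lost in 5 of 24 alternatives, among them those without T24h A, T24h C, C0h B or C0h C. In T24h it was at 2007, 796 and 945, so that T24h A stood with the T12h libraries, as it did for gene7019 (LOC110811182).

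Galactokinase GALK (LOC110821277), which phosphorylates the free galactose that galactosidases release, had 540, 511 and 456 normalized counts in T12h against 198, 267 and 203 in C12h, and rose by 1.18 on the log2 scale (limma SE 0.36, adjusted p = 0.0321). USP (LOC110813513), a UDP-sugar pyrophosphorylase that turns sugar phosphates into nucleotide sugars, had 490, 522 and 473 in T12h against 180, 234 and 148 in C12h and rose by 1.42 on the log2 scale (limma SE 0.37, adjusted p = 0.0181). In each case the T12h libraries were above all C12h libraries, but the untreated C24h B was above all T12h libraries, at 564 for GALK and 662 for USP. The call of T12h against C12h was lost in 7 of 24 alternatives for GALK (adjusted p from 0.00372 to 0.103) and in 6 of 24 for USP (0.00122 to 0.0782), in both cases without T12h B, T12h C, C12h A or C12h C, and for GALK also without T12h A. USP was also high in T24h, at 913, 717 and 691, against 261, 208 and 195 in C0h, and rose there by 1.80 on the log2 scale (limma SE 0.37, adjusted p = 0.0132), a call lost without T24h A or C0h C. GALK in T24h against C0h had a log2 fold change of 0.70 (adjusted p = 0.19). Against C24h, the log2 fold change in T24h was 0.57 for GALK (limma adjusted p = 0.398) and 1.34 for USP (adjusted p = 0.182).

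GME (LOC110809701), the GDP-mannose epimerase on the path to GDP-galactose and vitamin C, had 1364, 1418 and 1874 normalized counts in T12h against 603, 773 and 669 in C12h, and rose by 1.18 on the log2 scale (limma SE 0.26, adjusted p = 0.0109). The call was lost in 2 of 24 alternatives, without T12h C or C12h A. Against C0h its log2 fold change was 1.24 in T12h (adjusted p = 0.00821) and 1.01 in T24h (adjusted p = 0.0252), the second call being lost without T24h A, C0h B or C0h C. GALT1 (LOC110809158), a galactosyltransferase of N-glycans in Arabidopsis, was low throughout, at 10.9, 9.06 and 18.5 in T24h and 2.29, 0 and 2.85 in C0h, and rose by 2.51 on the log2 scale (limma SE 0.69, adjusted p = 0.0302). Since C0h B was at 0, the size of this change depends on the value that was added before taking logs. The call was lost in 6 of 23 alternatives (adjusted p from 0.00535 to 0.111), among them those without T24h A, T24h C, C0h B or C0h C. T12h against C0h gave a log2 fold change of 2.30 (adjusted p = 0.0309), and that call was lost in 8 of 23, among them each run without a T12h library. Against controls of the same age GALT1 was not called, with 0.92 in T12h (limma adjusted p = 0.337) and 1.91 in T24h (adjusted p = 0.203).

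GALS1 (LOC110816714), which in Arabidopsis makes the pectic galactan that beta-galactosidases can degrade, had 38.7, 42.3 and 62.3 normalized counts in T24h against 140, 277 and 202 in C0h. It fell with a log2 fold change of -2.06 (limma SE 0.53, adjusted p = 0.0245), with no overlap, and the call was lost in 6 of 24 alternatives (adjusted p from 0.00743 to 0.0892), among them those without T24h A, T24h B, C0h B or C0h C. Against C24h the log2 fold change of GALS1 in T24h was -1.29 (limma adjusted p = 0.231 on 15 libraries). C24h B, at 57.3, lay within the range of T24h. T12h against C12h gave -0.76 for GALS1 (limma adjusted p = 0.305), and C24h against C0h gave -0.77. GALS3 (LOC110811554), the other galactan synthase of the list, was called in no comparison on the 15 libraries without a harvest term, nor were GMD1, STS and VTC4. In T24h against C0h the log2 fold change of GALS3 was 1.35 (limma SE 0.44, adjusted p = 0.0518). GALS3 was called there with the harvest as a replicate block (adjusted p = 0.0461), with a mean of at least 50 as the filter, and without C0h A, C24h B or C24h C. VTC4, a phosphatase of vitamin C synthesis, was called as lower without C24h B in T24h against C24h, T12h against C0h and T24h against C0h.

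**Figure D4:**
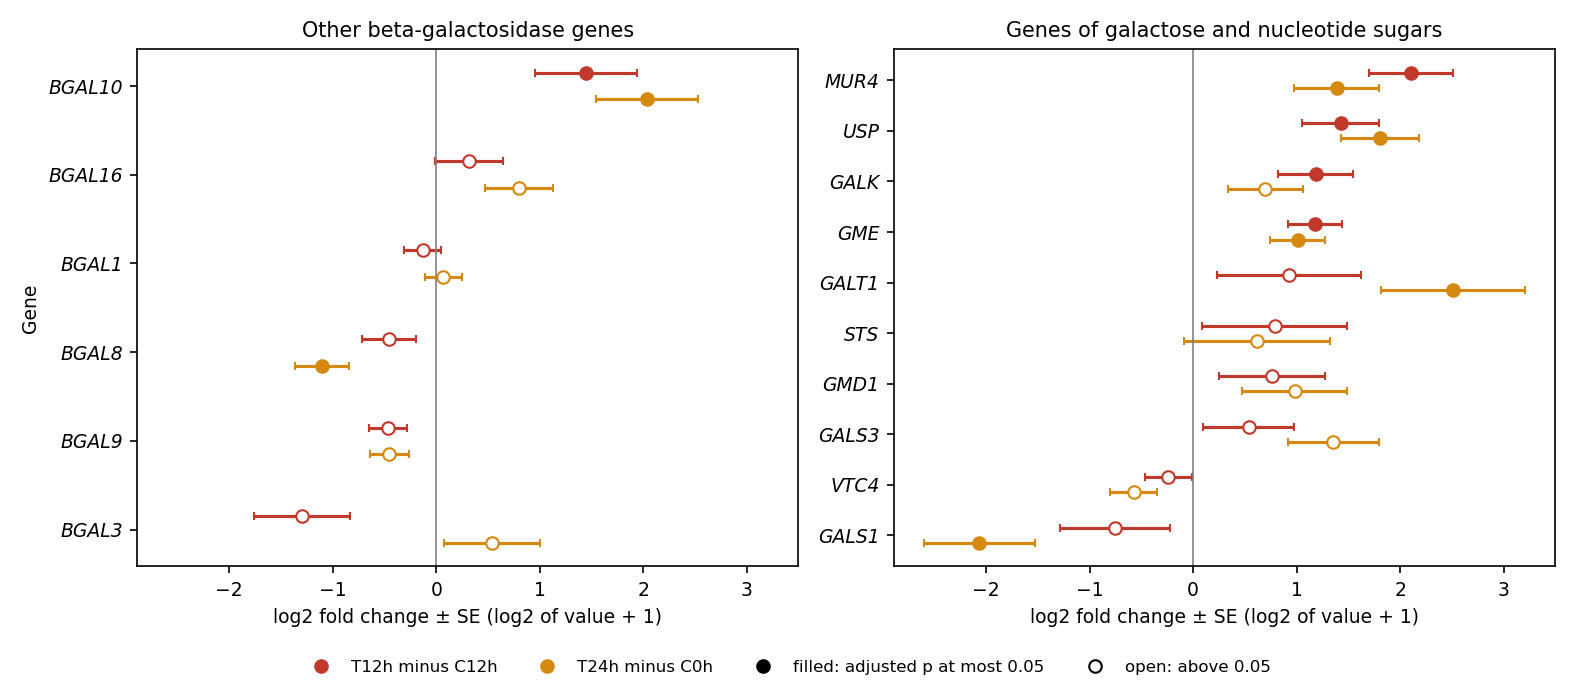
Log2 fold changes (after adding 1 to the normalized counts) with bars of 1 SE for 6 other beta-galactosidase genes and 10 genes of galactose and nucleotide sugars, in T12h minus C12h and T24h minus C0h, with filled points for an adjusted p of at most 0.05 from limma. BGAL10 is called in both (1.45 and 2.04), and MUR4 has the largest value of T12h minus C12h in the plot (2.1).

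The genes whose course over the 15 libraries was most like that of each member were found by the root-mean-square (RMS) difference of log2 values, each gene centred on its own mean, among 15269 genes. For gene7019 (LOC110811182), whose own RMS about its mean was 1.21, the nearest were LOC110816656 (0.31), JAR1 (LOC110810413, 0.33) and PKS2 (LOC110809187, 0.34), beside a median of 1.27 over all genes. JAR1, in Arabidopsis the enzyme that joins jasmonic acid to isoleucine, averaged 507 normalized counts in T24h, 960 in T12h, 238 in C0h, 181 in C12h and 274 in C24h, the same order of groups as gene7019.

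For BGAL5 (LOC110810818, own RMS 1.06), the nearest were LOC110819620 (0.42), LOC110819202 (0.46) and LOC110817224 (0.48), beside a median of 1.14. LOC110819202 averaged 67.1 normalized counts in T24h, 25.4 in T12h, 90.0 in C0h, 81.9 in C12h and 69.2 in C24h, with its lowest mean in T12h as for BGAL5. For gene1360 (LOC110817097, own RMS 0.83), the nearest were LOC110813285 (0.34), PYD2 (LOC110817036, 0.36) and LOC110817037 (0.38), beside a median of 0.94. PYD2, named for an Arabidopsis enzyme of pyrimidine breakdown, averaged 97.9 in T24h, 176 in T12h, 278 in C0h, 215 in C12h and 199 in C24h, with its lowest mean in T24h and its highest in C0h as for gene1360. These values describe likeness in the 15 libraries, which share their groups and harvests.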

How the data were processed

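Pulp RNA of 15 libraries was analysed, grouped by their labels. SeqyClean was used to clean the reads and STAR to align them, with Papaya1.0 as the assembly, and fragments with a single alignment were retained. A counting tool is not given in the sources used here. The deposited signal values are gene counts that the authors divided by DESeq2 size factors. In each library they are whole multiples of a fixed step, from which reads were recovered for 13 libraries. Not recovered were those of T24h B and T12h B, whose step is near 1. All 15 columns of values were used. Unique alignment can leave out reads shared by near-identical genes of a family.

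For each comparison limma 3.58.1 (R 4.3.3) was fitted once to all 5 groups, letting the variance follow a trend, on the log2 of each value plus 1. It took in the 15270 genes with a mean of 5 or more. Benjamini-Hochberg adjustment ran over these genes, and genes were called at an adjusted p of 0.05 or less. The steps were tested on simulated data. The 3 members and all lists were chosen with earlier results of these data known. The genes named are the members, called relatives (symbols starting with BGAL, AGAL or GAL-A), up to 8 called genes of the galactose list and the 3 genes nearest to each member. Relatives and list genes named without a call, and the polygalacturonases and IRX3, were added to these. Gene numbers were paired with identifiers through the study's supplementary list of changed genes, and symbols come from a RefSeq table of an assembly that differs from the one aligned to, and only names were taken from it. It held 17406 of 19817 identifiers. No coordinates or sequences were read.

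Harvests pair the libraries by label. Once group means were removed, libraries of the same harvest were not closer (median r = -0.0351, n = 30 pairs) than others (median r = -0.0187, n = 60). The alternatives were TMM scaling, a pseudocount of 0.5 or of 5, a mean of 50 or more as the filter or none, a replicate block by harvest, leaving out each library, and edgeR 4.0.16 and DESeq2 1.42.0 on 13 libraries. Limma on those 13 libraries was added after seeing the data.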

Additional observations from a re-analysis of the deposited data

How the results depend on the processing

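With the harvest as a replicate block, the libraries being paired by harvest, the counts of other beta-galactosidase genes called stayed at 1 for T12h minus C12h, 0 for T24h minus C24h, 2 for T12h minus C0h, 2 for T24h minus C0h and 0 for T24h minus T12h and the interaction. The block added GALS3 to the galactose list in T24h minus C0h (6 genes called). On 13 libraries that list had 2 genes called with edgeR and with limma in T12h minus C12h and in T12h minus C0h, where DESeq2 called 4 and 2, and 2 with edgeR and 3 with limma in T24h minus C0h. The count of other beta-galactosidase genes called for T12h minus C12h was 0 with no filter on low values, and with edgeR or limma on 13 libraries. It was 0 to 2 when 1 library was left out (0 without T24h C, T12h A, B or C, C12h A or C, or C24h A, and 2 without C0h B or C24h B). For T12h minus C0h it was 0 with edgeR and with limma on 13 libraries, and 0 to 3 when 1 library was left out (0 without T12h A or C or C0h B or C, 1 without T12h B). For T24h minus C0h it was 1 with edgeR on 13 libraries, and 0 to 3 when 1 library was left out (0 without T24h A, C0h B or C0h C, 3 without C24h B or C24h C). For T24h minus C24h it was 0 to 2, with 2 without C24h B. The log2 fold change of T24h minus T12h was 1.02 (edgeR), 1.03 (DESeq2) and 1.03 (limma) for BGAL5 (LOC110810818) on 13 libraries, and -0.51 with edgeR and DESeq2 for gene1360 (LOC110817097), a set in which the treated groups have 2 libraries each. In these 5 comparisons the other log2 values of the 3 galactosidase genes moved by less than the spread between replicates. Their values for the interaction and between control groups were not rerun under the alternatives. With 3 pools a group, differences of the size of that spread cannot be resolved, also where depth is no limit, as for gene7019 (LOC110811182) with 5084 reads or more in each library whose reads were recovered.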
